A study of Mus musculus with 4 samples.

Results

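Laminin and integrin genes were taken from the deposited table by name: the 5 alpha, 3 beta and 3 gamma chains of laminin, 18 integrin alpha subunits and 8 integrin beta subunits, all protein-coding, 37 of the 55414 genes listed. The rule uses names and no measured value, though the group was proposed with earlier results of these data known. Of the 37, 33 had enough reads to be tested, 11 of 11 laminin chains, 16 of 18 integrin alpha subunits and 6 of 8 integrin beta subunits. RNA came from the cerebral cortex of C57BL/6J mice at postnatal day 1. The 2 genotypes were compared to ask what the kinase MKK7, an activator of JNK encoded by Map2k7, does in the developing cortex. The 2 libraries labelled Control, Control 2 and Control 3, carried floxed Mkk7 on both alleles (Mkk7flox/flox) with no Cre in their label. The 2 libraries labelled cKO, cKO 2 and cKO 3, carried the same floxed alleles with Emx1-Cre. Emx1 drives Cre in progenitors of the dorsal telencephalon, so excitatory neurons and glia of that lineage recombine, while vessels, microglia and meninges come from other lineages.

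Laminins are trimers of 1 alpha, 1 beta and 1 gamma chain and form the sheet on which a basement membrane is built. In the cortex that sheet lies under the pia, where the endfeet of radial glia attach, and around blood vessels. Integrins are pairs of 1 alpha and 1 beta subunit that span the membrane and bind laminin, collagen, fibronectin and other ligands outside the cell, and talin, kindlin and actin inside it. Loss of the pial attachment lets neurons migrate past the surface of the cortex, a defect known from mutants of laminins, of beta1 integrin and of dystroglycan, the other main laminin receptor.

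Library totals lay between 19421470 and 22511175 estimated counts, with counts in 21598 to 21929 genes. Levels are given as CPM, counts scaled to each library's size. For Map2k7 itself they were 38.4, 30.4, 47.9 and 48.2 CPM in Control 2, Control 3, cKO 2 and cKO 3. Its gene total was therefore not lower under the label cKO. Such a total also holds reads from exons that the deletion leaves in place, so it does not test the labels, and each direction below rests on them alone. Xist had no counts in cKO 3 and at least 1004 in the other 3 libraries, and Ddx3y had 985 in cKO 3 only, which puts 1 male library, cKO 3, beside 3 female ones. All 10 markers of cortical excitatory neurons were tested, with a summed level of 2067 to 2390 CPM in Control and 2610 to 2648 CPM in cKO libraries. In bulk tissue, fewer cells of a type and less RNA per cell cannot be told apart.

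Itgb1, the gene of beta1 integrin, had the highest level of the 37 members. Compared per length as TPM, the authors' length-scaled values, Itgb1, whose product pairs with most alpha subunits, had 33.7, 39.1, 43.1 and 49.6 TPM in Control 2, Control 3, cKO 2 and cKO 3. Itgb5, which pairs with the alpha v subunit and binds vitronectin, had 21.1, 23.5, 16.5 and 20.6 TPM. These 2 were the only members with a mean of at least 10 TPM, and 19 of the 37 had a mean below 1 TPM. The ranges of Itgb1 and Itgb5 were apart from each other and from every other member in all 4 libraries.

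Among alpha subunits the laminin receptor gene Itga6 had the highest mean TPM, 9.55, with 6.87 to 11.8 TPM over the 4 libraries. It was followed by Itgav, which encodes the alpha v subunit of receptors for vitronectin and latent TGF-beta, at a mean of 5.42 TPM (2.77 to 7.25), and by the laminin receptor gene Itga3 at 4.73 TPM (4.27 to 5.25). The range of Itgav overlaps those of Itga6 and Itga3, and in Control 2 Itgav (7.19 TPM) was above Itga6 (6.87 TPM), so the place of Itgav in this order is not resolved. The ranges of Itga6 and Itga3 do not overlap. The platelet subunit gene Itga2b came next by TPM (mean 3.43) with only 117 counts in all. Its counts and TPM implied an apparent transcript length of 524.5 to 991 bases, against a listed gene length of 3437 bases. By CPM per kilobase of listed length Itga2b ranked 21 rather than 10 of 37, and Itgav 13 rather than 7.

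Among laminin chains Lamb1, Lamc1 and Lamb2, the widespread beta and gamma chains, had means of 7.83, 7.21 and 6.79 TPM, and their ranges over libraries overlap. The alpha chain with the highest mean TPM was that of Lama4, a chain of vessel walls, at 4.52 TPM (3.65 to 6.02). In cKO 2, however, Lama1 (4.27 TPM) was above Lama4 (3.65 TPM). That Lama1 value goes with an apparent transcript length of 3010 bases, against a listed 9526. By CPM, Lama1 was below Lama4 in cKO 2, at 7.69 against 14.6. Lama2, Lamc3, Lama1, Lama5 and Lamb3 lay between 0.694 and 1.97 TPM on average. Lama3, which with Lamb3 contributes to the laminin of skin, was nearly absent at 0.0938 TPM. Its 44 counts were spread over 3 libraries, and Control 3 had none.

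**Figure D1:**
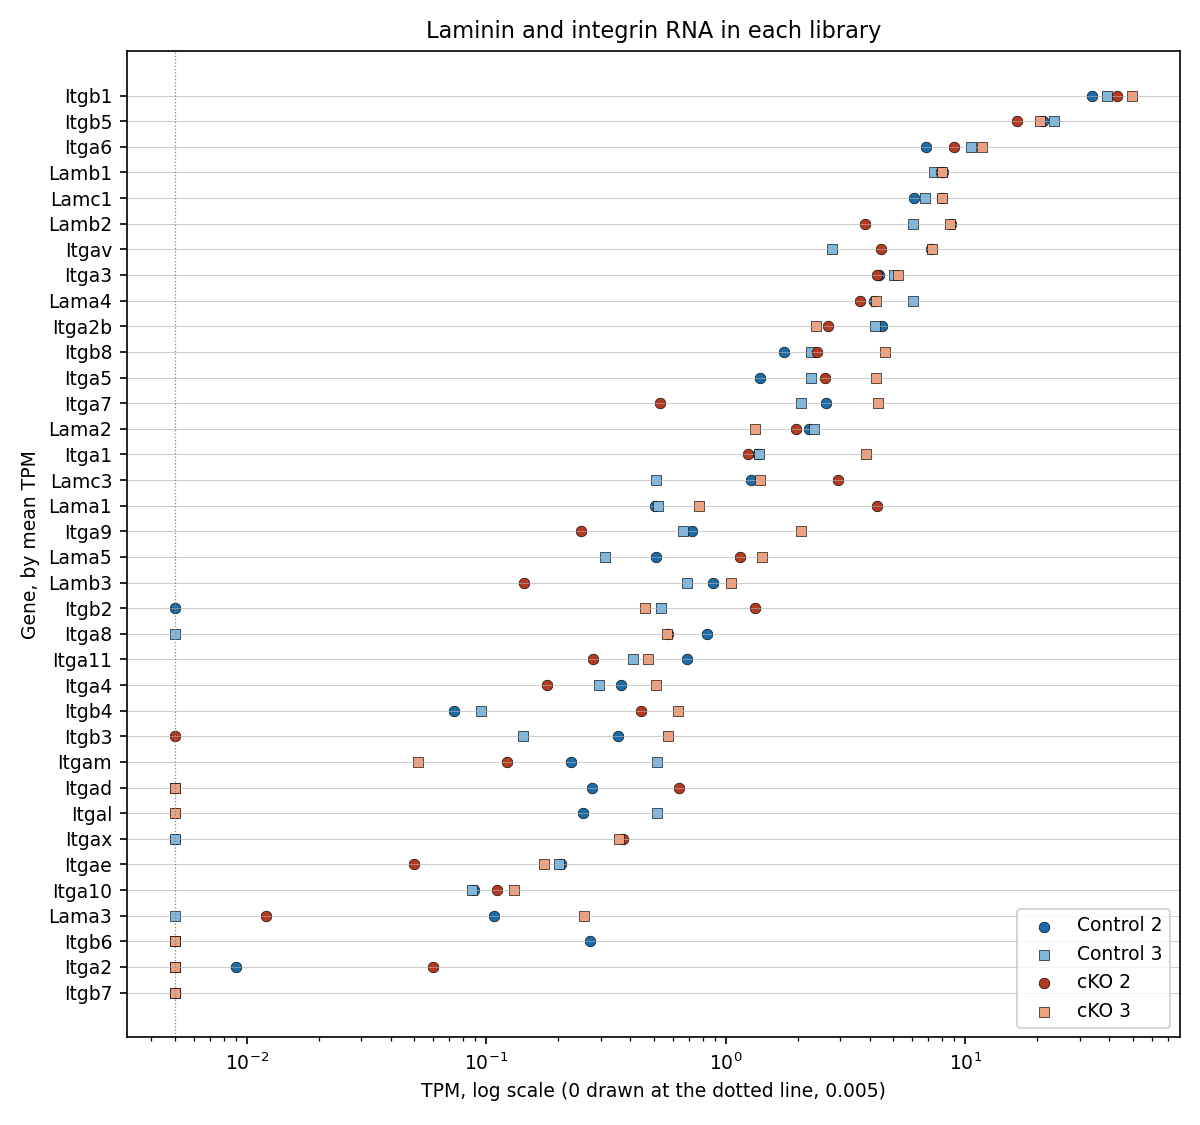
TPM of 36 of the 37 genes (log scale, 1 point per library, genes ordered by mean, values of 0 drawn at 0.005). Itgb1 and Itgb5 stand apart at the top in all 4 libraries, and 10 genes have at least 1 library at 0.

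No laminin or integrin gene passed the test between genotypes. With edgeR's quasi-likelihood test and Benjamini-Hochberg adjustment over all 17017 genes tested, 0 of the 33 tested members had an adjusted p below 0.05, where 0.047% of all genes did. DESeq2 called 0 of the 33 as well, against 1.09% of all genes. The adjusted p of members ran from 0.28 to 0.988 with edgeR. At an unadjusted edgeR p below 0.05 there were 6 members, or 18.2%, against 10.9% of all genes. They were Itgax, Itgb4, Itgb1, Itgb8 and Lamc3 with a positive log2 fold change (cKO over Control) and Itgal with a negative one.

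The members were split in direction. Of the 33, 19 had a positive and 14 a negative log2 fold change, with a median of 0.08 against -0.002 for all genes tested. The median without cKO 2 was 0.39 that without cKO 3 was -0.18 and that without Control 3 was -0.13, so its sign depended on single libraries. Both libraries labelled cKO lay above both labelled Control for 9 members (27.3%, against 22.0% of all genes) and below them for 9 (27.3%, against 22.2%). By class the median was 0.06 for the 11 laminin chains, -0.13 for the 16 alpha subunits and 0.63 for the 6 beta subunits. These are descriptions of genes that passed the filter on low counts, not a test of the classes.

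**Figure D2:**
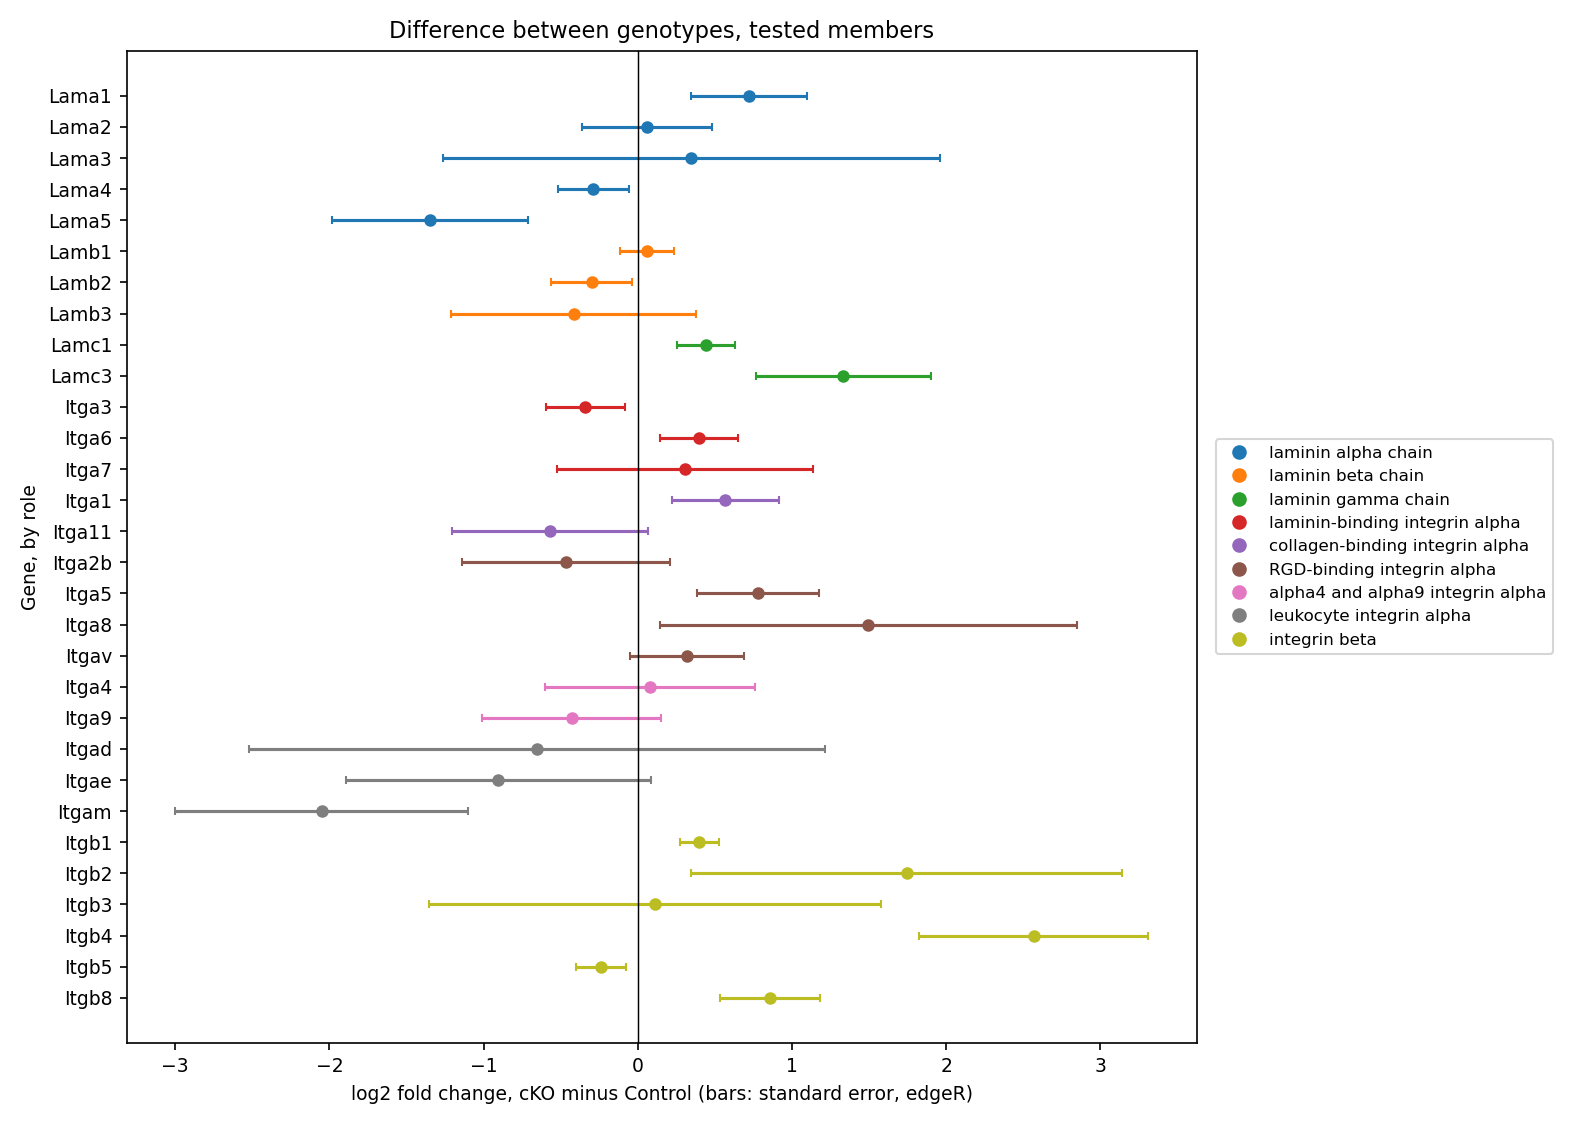
Log2 fold change (cKO minus Control) of 30 tested members, with edgeR standard errors as bars and colours for the role of each gene; Itgal and Itgax, with a genotype at 0 counts, and 1 gene not reported here are left out. Values lie on both sides of 0 within most roles, and the widest bars belong to genes with few counts such as Lama3, Itgad and Itgb3.

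Among beta subunits, Itgb1 (ENSMUSG00000025809.16; chromosome 8, 129412135 to 129459681, GRCm39) had the most reads, 9223 in all. Levels were 92.3, 102.8, 128.1 and 129.3 CPM in Control 2, Control 3, cKO 2 and cKO 3. The groups did not overlap, and both libraries labelled cKO were nearly equal. The fold was 1.32 (log2 fold change 0.40, SE 0.12, n = 2 per group), with an unadjusted p of 0.0140 and an edgeR adjusted p of 0.379, short of the threshold. The value stayed between 0.32 and 0.48 on the log2 scale when each library was left out in turn.

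Itgb5, the second most abundant, pointed the other way. It stood at 43.9 and 47.8 CPM in the Control and 38.8 and 38.9 CPM in the cKO libraries. The groups did not overlap, and the log2 fold change of -0.24 (SE 0.16, edgeR adjusted p = 0.638) did not pass. Itgb8, whose product pairs with alpha v on glia and frees active TGF-beta for the vessels of the developing brain, stood at 8.81, 9.24, 11.9 and 20.8 CPM in Control 2, Control 3, cKO 2 and cKO 3. The excess over Control was larger in cKO 3 than in cKO 2. The log2 fold change of 0.86 (SE 0.33) had an adjusted p of 0.426 in edgeR and was 0.39 without cKO 3.

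Itgb4, which pairs with the alpha6 subunit and is best known from the anchoring of skin epithelium, had the largest fold among genes read in all 4 libraries. There were 6 and 8 counts in the Control libraries and 38 and 52 in the cKO libraries, or 0.305, 0.406, 2.00 and 2.28 CPM. The groups were well apart at this low level, with a fold of 5.93 (log2 fold change 2.57, SE 0.74, unadjusted p = 0.00994, edgeR adjusted p = 0.353). Its alpha partner Itga6 stood at 16.6 and 23.6 CPM in the Control and 23.4 and 29.6 CPM in the cKO libraries, which overlap (log2 fold change 0.40, SE 0.25). The 4 other beta genes, Itgb2 of leukocytes among them, were rarely read. Itgb3, the partner of platelet and alpha v subunits, had 32, 13, 0 and 56 counts in Control 2, Control 3, cKO 2 and cKO 3, and the epithelial Itgb6 had 12 counts, all in Control 2. Itgb7, a lymphocyte subunit, had none, which by random sampling of reads alone allows up to 3 counts in all.

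The Itgb1 promoter is shown because Itgb1 had the most RNA of the members. JNK phosphorylates c-Jun, a partner in the AP-1 factors, so the AP-1 letters TGACTCA and the related CRE letters TGACGTCA were searched on both strands in the RefSeq promoter windows (GRCm38.p6, 250 bases before to 50 after each start). A window was found for 23 of the 37 members, 26 windows in all. AP-1 letters were in 2 of the 26 (7.69%), against 5.2% of all 32851 windows, and CRE letters in 0, against 1.79%. The 250 bases before the Itgb1 start (chr8:128685404-128685653, plus strand, GRCm38.p6) hold neither of them, which says only that these letters are not in this window.

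Itgb1: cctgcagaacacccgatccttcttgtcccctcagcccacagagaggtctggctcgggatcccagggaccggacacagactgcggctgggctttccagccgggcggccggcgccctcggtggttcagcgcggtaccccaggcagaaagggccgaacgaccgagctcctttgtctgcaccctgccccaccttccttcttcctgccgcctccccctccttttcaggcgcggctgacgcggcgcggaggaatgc

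Among laminin alpha chains, Lama4 had the most reads. It stood at 16.6 and 19.1 CPM in the Control and 14.6 and 14.7 CPM in the cKO libraries. The groups did not overlap, yet the log2 fold change of -0.29 (SE 0.23, edgeR adjusted p = 0.687) was close to its standard error. Lama2, the chain of muscle and of brain vessels and meninges, stood at 7.28, 5.48, 8.85 and 4.51 CPM in Control 2, Control 3, cKO 2 and cKO 3. The groups overlap fully, and the value of 0.06 (SE 0.42) was -0.50 without cKO 2. Lama1, a chain of early basement membranes and of the pia, stood at 3.92 and 4.11 CPM in the Control and 7.69 and 5.56 CPM in the cKO libraries, which do not overlap (log2 fold change 0.72, SE 0.38, edgeR adjusted p = 0.531).

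Lama5, a chain of epithelia and vessels, gave opposite directions on 2 scales. Counts were 85 and 54 in Control 2 and Control 3 and 15 and 45 in cKO 2 and cKO 3, or 4.33, 2.74, 0.790 and 1.97 CPM. The libraries labelled cKO were both lower, with a log2 fold change of -1.34 (SE 0.64, edgeR adjusted p = 0.492). TPM ran the other way, at 0.509 and 0.312 in the Control and 1.15 and 1.41 in the cKO libraries. The scales differ by the transcript length that the authors' values imply. Dividing counts by TPM gave apparent lengths of 15100 and 15490 bases in the Control libraries and 1147 and 2607 bases in the cKO libraries, where the listed length is 11388. The implied length was thus shorter in both libraries labelled cKO, from few reads. No assignment of reads to transcripts was among the values used.

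Lama1 showed the same in a single library. Its apparent length was 13710, 13890 and 13480 bases in Control 2, Control 3 and cKO 3 but 3010 bases in cKO 2, and TPM was 0.508, 0.522 and 0.770 against 4.27 there. In 5 of the 33 tested members, Lama2, Lama5, Itga3, Itga9 and Itgad, group means of TPM and of CPM differed in opposite directions. Itga9, which encodes a receptor subunit for tenascin, stood at 3.97, 3.71, 1.47 and 4.20 CPM, with an apparent length of 9770 to 9936 bases in 3 libraries and 3817 bases in cKO 3. It overlaps Gm10157 on the opposite strand, a pseudogene with 731 counts in all.

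**Figure D3:**
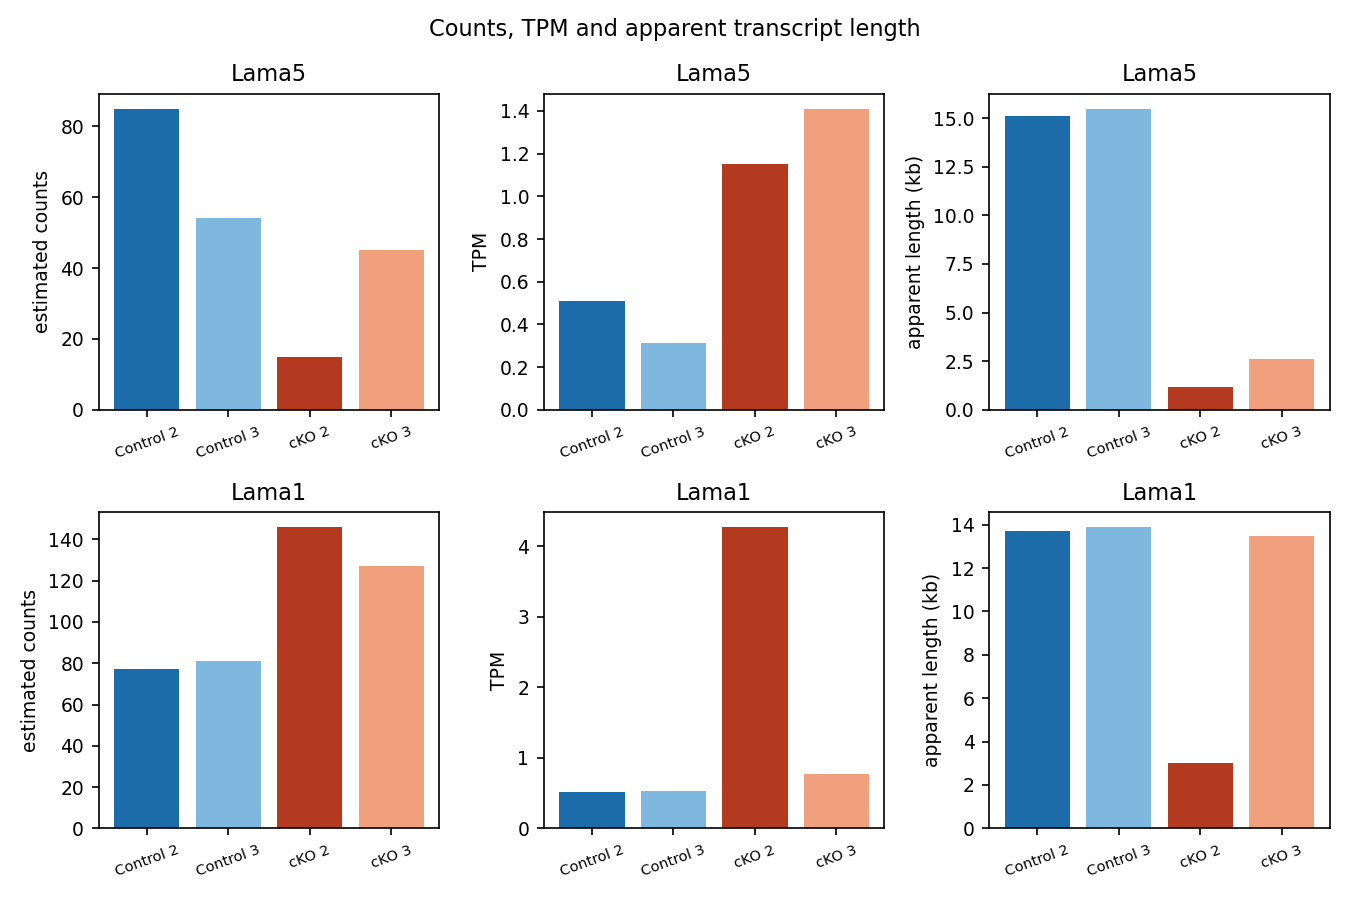
Estimated counts, TPM and apparent transcript length in kilobases (counts over TPM, scaled by the library's median over protein-coding genes) of Lama5 and Lama1, 1 bar per library. The Lama5 counts are lower and the TPM higher in both cKO libraries, where the apparent length is shortest; for Lama1 only cKO 2 differs in length.

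Among laminin beta chains, Lamb1 was even over the libraries. It stood at 34.5 and 34.3 CPM in the Control and 37.9 and 33.9 CPM in the cKO libraries (log2 fold change 0.06, SE 0.18), and its sign turned without cKO 2. Lamb2, a chain of the pial and vascular sheets and of the neuromuscular junction, stood at 29.9 and 25.0 CPM in the Control and 17.3 and 27.2 CPM in the cKO libraries. Only cKO 2 was low, so the groups overlap (log2 fold change -0.30, SE 0.27). Lamb3 showed the same pattern at lower levels, with 2.65, 2.13, 0.579 and 2.98 CPM in Control 2, Control 3, cKO 2 and cKO 3 (log2 fold change -0.42, SE 0.79). It overlaps Hsd11b1 and G0s2 on the opposite strand, and this kit does not mark strand.

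No gamma chain passed the test. Lamc1 (ENSMUSG00000026478.15; chromosome 1, 153094668 to 153208532, GRCm39), the gamma chain of most laminins, stood at 22.1 and 23.9 CPM in the Control and 31.5 and 31.0 CPM in the cKO libraries. The groups did not overlap and replicates were close, with a fold of 1.36 (log2 fold change 0.44, SE 0.19, unadjusted p = 0.0510, edgeR adjusted p = 0.459).

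Lamc3, whose human counterpart is mutated in a malformation of the occipital cortex, had 5.60, 2.28, 14.1 and 5.82 CPM in Control 2, Control 3, cKO 2 and cKO 3. The groups only just fail to overlap, because each library numbered 2 was over 2 times the library numbered 3 of its genotype. The log2 fold change was 1.33 (SE 0.57, unadjusted p = 0.0497, edgeR adjusted p = 0.457) and ranged from 0.56 to 2.12 when each library was left out. The 10 choroid plexus markers summed to 810, 19.9, 365 and 13.4 CPM over the libraries in the same order, also higher in the libraries numbered 2. Their part in the Lamc3 values was not tested.

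No alpha subunit that binds laminin passed the test. Itga3 stood at 15.2 and 18.5 CPM in the Control and 14.9 and 11.7 CPM in the cKO libraries (log2 fold change -0.34, SE 0.26). Itga7, the laminin receptor of muscle, had the widest gap within a genotype of the genes read in every library. Its counts were 135 and 82 in Control 2 and Control 3, but 26 in cKO 2 and 279 in cKO 3, or 1.37 against 12.2 CPM. The log2 fold change of 0.31 (SE 0.83) became -2.01 without cKO 3 and 1.15 without cKO 2, so these libraries give it no direction. The 11 markers of mural cells, the contractile cells of vessel walls, summed to 135.1 and 135.8 CPM in cKO 2 and cKO 3. Single markers differed more, with a median absolute log2 difference of 0.43 between these libraries and 5 of 11 higher in cKO 3. The part of mural cells in the Itga7 values was not tested.

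Of the 4 collagen-binding alpha subunits, Itga1 and Itga11 were tested. Itga1 stood at 9.52, 8.22, 9.37 and 16.9 CPM, high in cKO 3 alone (log2 fold change 0.57, SE 0.35), and holds the gene Pelo, with 928 counts in all, within its span on the same strand. Itga11 lay between 1.16 and 2.65 CPM with overlapping groups. Itga2 and Itga10 had 8 and 34 counts in all and were not tested.

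Among subunits that bind the RGD motif of fibronectin and vitronectin, Itga5, the fibronectin receptor, stood at 4.58 and 7.66 CPM in the Control and 7.90 and 13.1 CPM in the cKO libraries. The groups were separated by less than the gap between libraries of a genotype (log2 fold change 0.78, SE 0.40, edgeR adjusted p = 0.526). Itgav stood at 7.13, 6.24, 6.11 and 10.6 CPM, again high in cKO 3 alone. Itga8, a nephronectin receptor, had 76 counts in all and none in Control 3. Outside the RGD-binding group, Itga4, a receptor for VCAM1 on blood cells, lay between 1.12 and 2.06 CPM. Its log2 fold change was 0.08 (SE 0.68).

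The integrins of leukocytes were near the limit of detection and held the 2 smallest p-values of the members. Itgal (ENSMUSG00000030830.19; chromosome 7, 126895432 to 126934310, GRCm39), which encodes the alpha subunit of LFA-1, had 15 and 33 counts in Control 2 and Control 3 and 0 in both libraries labelled cKO. Random sampling of reads alone allows 3 counts over both libraries (0.0717 CPM) for a total of 0. Set against these, Itgal was 17.0-fold lower there (edgeR unadjusted p = 0.00283, adjusted p = 0.28). This limit leaves out the spread between libraries, so the fold is no firm bound. Itgb2, for example, had 0 counts in Control 2 and 24 in Control 3. Itgax (ENSMUSG00000030789.10; chromosome 7, 127728719 to 127749829, GRCm39), which encodes CD11c of dendritic cells and some microglia, had 0 counts in both Control libraries and 24 in each library labelled cKO. Against the same limit, Itgax was 15.0-fold higher in the cKO libraries (edgeR unadjusted p = 0.00244, adjusted p = 0.28), again no firm bound. With DESeq2 the adjusted p was 0.0658 for Itgal and 0.0813 for Itgax, also short of the threshold.

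Itgam, which encodes CD11b of microglia and myeloid cells and lies next to Itgax, had 16, 37, 9 and 4 counts in Control 2, Control 3, cKO 2 and cKO 3, lower in both libraries labelled cKO. The log2 fold change was -2.05 (SE 0.95), with an adjusted p of 0.485 in edgeR. Their shared partner Itgb2 had 0, 24, 60 and 22 counts, with neither the order of Itgax nor that of Itgam. The neighbouring Itgad had 16, 0, 10 and 0 counts and overlaps Cox6a2 on the opposite strand. Itgae had 12, 12, 3 and 11 counts and overlaps Haspin. Itgam, Itgax and Itgad are related genes, and their estimated counts were whole in every library. How reads matching more than 1 of them were assigned was not tested.

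The 12 microglia markers summed to 241 and 262 CPM in the Control and 265 and 204 CPM in the cKO libraries, and 9 of 12 had a negative fold change (median log2 fold change -0.17, none called). The 11 markers of blood leukocytes summed to 3.00 and 3.05 CPM in the Control and 6.74 and 4.16 CPM in the cKO libraries, and their members Cd3e, Ly6g, Ms4a1 and Ncr1 had 0 counts in every library. The part of these cells in the values of Itgal, Itgax and Itgam was not tested.

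The Itgax promoter is shown because Itgax was read in 1 genotype only and its window is 1 of the 2 with AP-1 letters. The capitals mark them, starting 56 bases before the start in the 250 bases given (chr7:128129300-128129549, plus strand, GRCm38.p6). A match of letters is a description and no evidence of binding.

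Itgax: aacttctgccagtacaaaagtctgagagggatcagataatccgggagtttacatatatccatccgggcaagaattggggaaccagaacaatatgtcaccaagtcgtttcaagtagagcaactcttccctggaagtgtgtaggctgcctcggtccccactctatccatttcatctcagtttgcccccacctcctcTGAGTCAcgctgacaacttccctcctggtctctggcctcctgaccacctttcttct

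The other window with AP-1 letters was that of Itga9, where they lie after the start. Itga9 stood at overlapping levels in both genotypes (log2 fold change -0.43, SE 0.58).

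By the median, and without matching for read depth, the libraries of 1 genotype differed more for these genes than for genes in general. Between cKO 2 and cKO 3 the median absolute log2 difference was 0.66 over the 33 tested members, against 0.31 over all tested genes and 0.34 over the 15026 genes in the members' range of summed counts. Between both Control libraries it was 0.32, against 0.23 and 0.27. The gap between cKO libraries was over 2-fold for 11 members, and that between Control libraries for 8. These include genes with 0 counts in a library, such as Itgad and Itgb3. The share of all genes with such gaps was not computed, so these numbers are no trait of the members. Itga7, Lamb3, Itgae, Itga9 and Lama5 were all higher in cKO 3 than in cKO 2, and Itgam and Lamc3 were lower. Itgb1, Itgb5, Lama4 and Lamc1, by contrast, were nearly equal in cKO 2 and cKO 3. By Xist and Ddx3y the cKO libraries also differ in sex, while both Control libraries were female. The part of sex in these gaps was not tested.

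**Figure D4:**
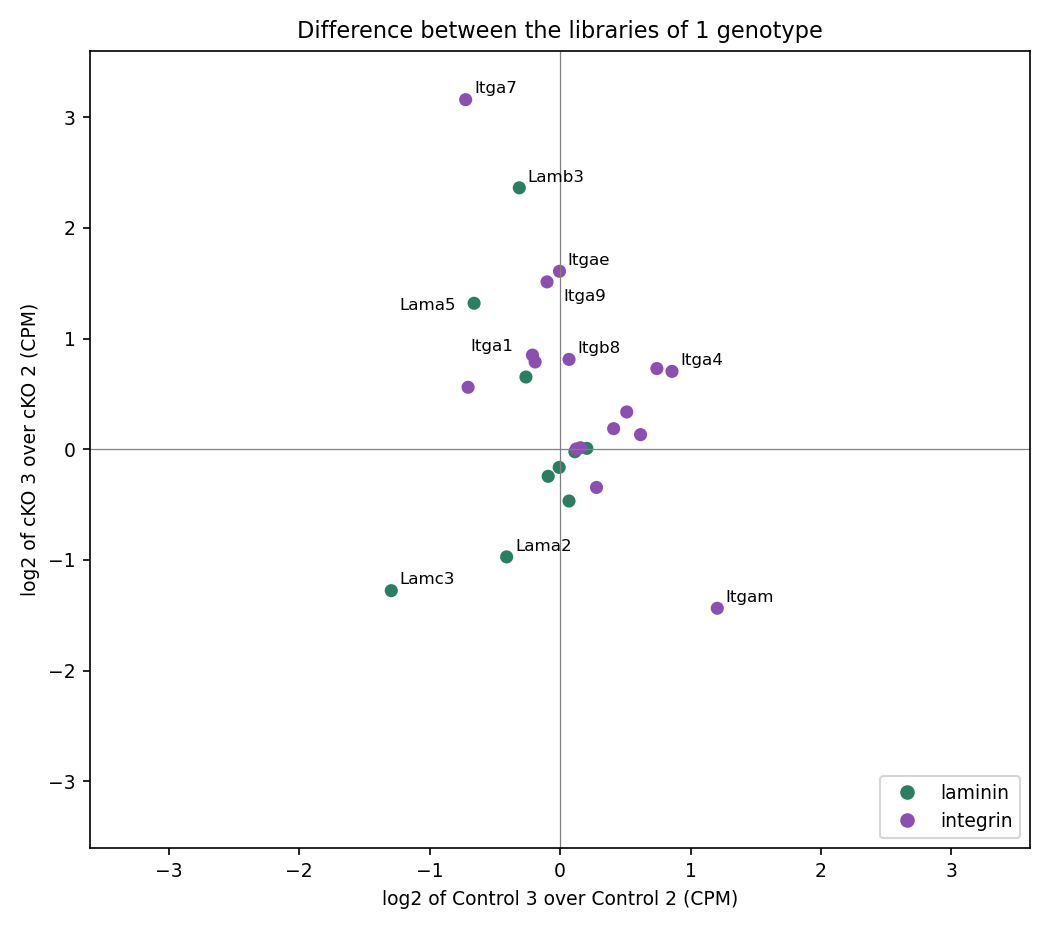
Log2 ratio of cKO 3 over cKO 2 (vertical) against that of Control 3 over Control 2 (horizontal) for the 26 tested members with counts in all 4 libraries, laminins in green and integrins in purple. Itga7 and Lamb3 stand out as higher in cKO 3, while Lamc3 is lower in the library numbered 3 of both genotypes.

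Genes that work with laminins and integrins were read from 6 lists with 123 genes, of which 121 were tested and 0 were called by edgeR or by DESeq2. At an unadjusted edgeR p below 0.05 there were 12 (9.92%, against 10.9% of all genes), 9 of them positive. The basement membrane partners, such as nidogens and type IV collagens, had 11 of 16 members positive and a median log2 fold change of 0.19. Nid1, which links laminin to collagen IV, stood at 42.9 and 27.0 CPM in the Control and 55.7 and 48.4 CPM in the cKO libraries (log2 fold change 0.57, SE 0.24, edgeR adjusted p = 0.454). Col4a1 stood at 122.6 and 125.9 CPM in the Control and 143.0 and 159.8 CPM in the cKO libraries (log2 fold change 0.29, SE 0.12).

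Other ligands of integrins in the matrix had 19 of 25 positive and a median of 0.29. Spp1, which encodes osteopontin, stood at 20.2 and 32.9 CPM in the Control and 49.4 and 41.5 CPM in the cKO libraries (log2 fold change 0.77, SE 0.26, edgeR adjusted p = 0.399). Tnc, which encodes tenascin-C, a matrix protein of radial glia and astrocytes, stood at 92.7 and 107.6 CPM in the Control and 122.1 and 148.7 CPM in the cKO libraries (log2 fold change 0.44, SE 0.15). Neither gene's groups overlap, and neither passed.

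Dystroglycan and the enzymes that build its laminin-binding sugar were the only one of the 6 lists with a negative median, -0.24, with 13 of 18 members negative. Pomgnt2 and Pomk, enzymes that extend and phosphorylate the first sugars, were lower in both libraries labelled cKO, with log2 fold changes of -0.49 (SE 0.18) and -0.36 (SE 0.14). Pomgnt2 stood at 56.6 and 59.9 CPM in the Control and 36.7 and 46.0 CPM in the cKO libraries. Neither passed (edgeR adjusted p = 0.409 and 0.436).

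Inside the cell the lists were closer to 0. Genes of integrin activation and linkage to actin had 14 of 23 positive and a median of 0.14, with Rap1a, which encodes a small GTPase that recruits talin, at 0.32 (SE 0.17). Kinases and adaptors downstream had 16 of 23 positive and a median of 0.11, with the adaptor genes Bcar1 at 0.41 (SE 0.14) and Nedd9 at 0.63 (SE 0.23). Partners in the membrane, such as tetraspanins and syndecans, had 12 of 16 positive and a median of 0.09. The laminin receptor gene Bcam among them was at 0.69 (SE 0.30) and Lrrc32, which encodes a carrier of latent TGF-beta, at 0.86 (SE 0.41).

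**Figure D5:**
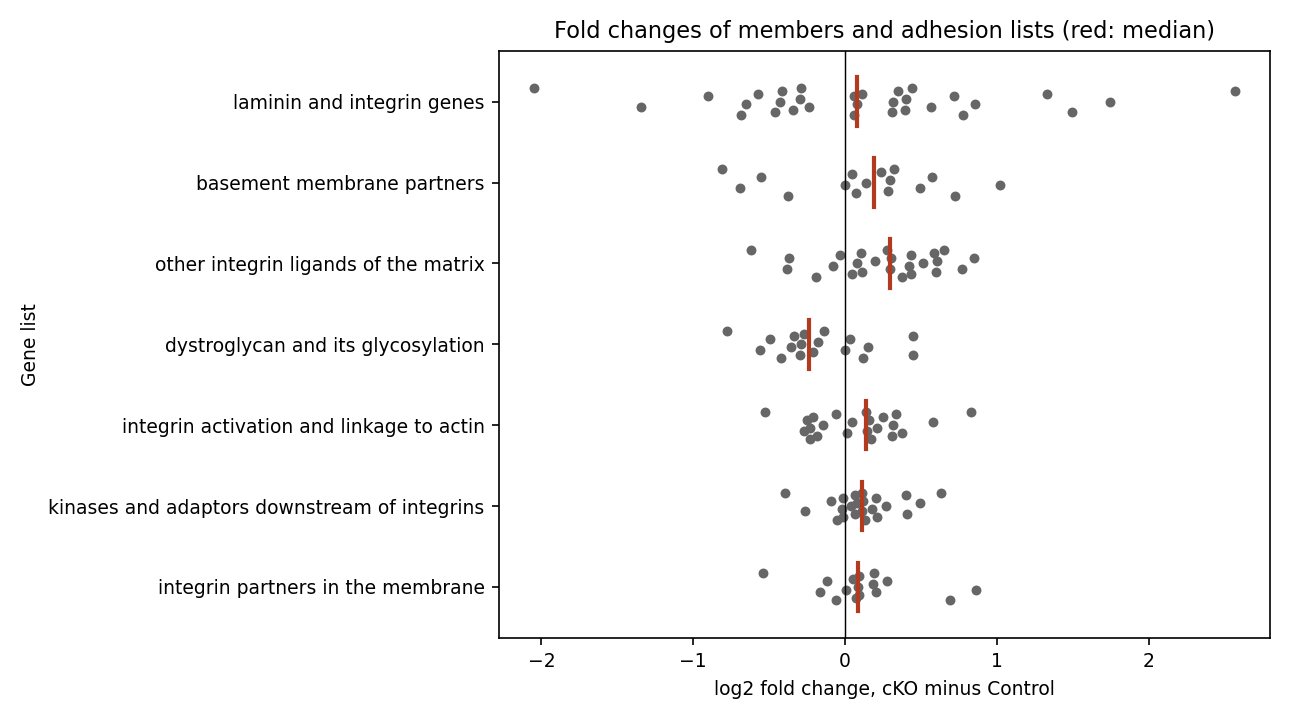
Log2 fold change (cKO minus Control) of each tested gene, 1 point per gene, for 31 tested laminin and integrin genes (without Itgal and Itgax) and the 6 adhesion lists, with medians in red. The members spread more widely than each list, and the dystroglycan list alone has its median below 0.

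Cells of vessels and meninges, outside the Emx1 lineage, make much of the laminin of the brain, so their markers are given here. The 12 markers of meningeal fibroblasts summed to 328 and 396 CPM in the Control and 503 and 444 CPM in the cKO libraries, with 10 of 12 positive and a median of 0.42. The 12 endothelial markers summed to 326 and 328 CPM in the Control and 355 and 338 CPM in the cKO libraries, with 10 of 12 positive and a median of 0.25. Mural cell markers had 8 of 11 positive (median 0.27), with sums of 113 to 128 CPM and 135 to 136 CPM. Striatal markers, from a region beside the cortex, were lower in both libraries labelled cKO for 12 of 12 genes, against 22.2% of all genes tested. They summed to 348 to 500 CPM in the Control and 170 to 174 CPM in the cKO libraries (median -1.88). Astrocyte markers had 8 of 9 negative (median -0.49). The radial glia list was even (5 of 10 positive, median -0.02), and that of oligodendrocyte precursors had 4 of 8 positive. Platelet markers summed to 20.6 and 22.3 CPM in the Control and 39.1 and 23.8 CPM in the cKO libraries, with Gp6 at 0, and red cell genes to 3092 to 3413 CPM and 1875 to 4912 CPM. No gene of these lists was called, and the part of these cells in the values of Itgb1, Lamc1, Nid1, Col4a1 and the other members was not tested.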

How the data were processed

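Libraries from TRIzol-extracted total RNA used the SMART-Seq v4 kit, per the labels' protocols; it primes on poly(A) tails and keeps no strand. The authors deposited estimated counts and TPM per gene, from DRAGEN on GRCm39 per the submitters' processing notes; no source used here states the version, annotation or filters. Reads matching several genes can have been split: 30.7% to 34.3% of genes with counts held a value that was not whole.

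Estimated counts were rounded, filtered with edgeR's default (17017 genes), scaled with TMM and tested with edgeR 4.0.16 (R 4.3.3) on genotype alone, adjusted over all genes, threshold 0.05. SE is the absolute log2 fold change over the root of F. DESeq2 1.42.0 and limma 3.58.1 (voom) were alternatives, with 12 in all. The procedure was tested on simulated counts. The labels do not say whether libraries came from separate animals. By Xist and Ddx3y, cKO 2 and cKO 3 differ in sex, so they are not repeats of the same animal. For Control 2 and Control 3, both female, this is not known. The p-values therefore measure the spread between these libraries, which includes sex in the cKO group and may be technical in the Control group. Replicate libraries were not duplicates (chi-square per degree of freedom 12.8 and 27.7).

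Members and lists were chosen with earlier results of these data known. Values in every library are given for members with a mean of at least 10 TPM, the 8 smallest p-values and the laminins (Lama3 by its total). Of each adhesion list the 2 genes of smallest p are named, some by log2 fold change and SE only. Other members were detailed after their values were seen. A few genes that this rule or the lists would name are not reported here by name; they stay in the counts, medians and sums. Apparent length is counts over TPM, scaled to the listed gene length (deposited by the authors) at the median of protein-coding genes with at least 100 counts; it carries no error estimate.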

Additional observations from a re-analysis of the deposited data

How the results depend on the processing

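No member and no gene of the adhesion lists was called under any of the 12 alternatives. Over all genes the 8 calls became 58 with no filter and 185 with DESeq2, and 0 to 2 when a library was left out; with the replicate block, 7. The replicate numbers were not tied to a litter or day by the labels, and deviations of same-numbered libraries had a correlation of 0.0136 over genes. The fold change of 23 members kept its sign in every alternative in which they were tested, and that of 10 turned in at least 1; the cause was not tested. With limma-voom the log2 fold change was -0.0330 for Lama2, -0.270 for Itga7 and -1.85 for Itgb3, and with the replicate block -0.281 for Itga7 and -1.08 for Itgb3. Leaving out each library gave ranges of -0.499 to 0.470 for Lama2, -2.05 to 6.59 for Lama3, -0.0215 to 0.139 for Lamb1, -2.03 to 0.318 for Lamb3, -2.01 to 1.15 for Itga7, -0.131 to 0.659 for Itgav, -0.319 to 0.565 for Itga4, -1.38 to 0.132 for Itga9 and -7.48 to 1.10 for Itgb3. For Itgad the range was -6.1 to 0.367. The ends beyond 6 in size come from genes with 0 counts in a group. Depth limits the tested leukocyte subunits, which had 26 to 106 counts over 4 libraries. The median over members was -0.13 without Control 3 and 0.22 without Control 2.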

Other observations

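The table holds 5 genes whose names resemble those of the members but fall outside them. Itgb1bp1, which encodes a regulator of beta1 integrin, had 34.3, 37.3, 35.2 and 25.1 CPM in Control 2, Control 3, cKO 2 and cKO 3, with a log2 fold change of -0.25 (SE 0.22) and an adjusted p of 0.714 in edgeR. Itgbl1 had 3.11, 4.47, 4.48 and 6.83 CPM in that order, and Itgb3bp, a centromere gene despite its name, between 4.12 and 5.82 CPM. Itgb1bp2 had 32 counts in all, none of them in the libraries numbered 3, and Itgb2l had 0.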
